A study of Homo sapiens with 6 samples.

Results

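The G1/S cyclins, cyclin-dependent kinases (CDKs) and CDK inhibitors were followed in poly(A) RNA of HCT116, a line established from a human colorectal cancer, after knockdown of Matrin3. The genes were the D-type cyclins CCND1, CCND2 and CCND3 with the kinases CDK4 and CDK6, the E-type cyclins CCNE1 and CCNE2 with the kinase CDK2, and the inhibitors CDKN1A and CDKN1B. They were chosen by symbol, for their known roles, with earlier results of these data known. All 10 were found among the 56632 genes of the tables and among the 16786 genes with enough counts to be tested. There were 3 libraries of cells transfected with a pool of small interfering RNAs against Matrin3 (siMatrin3) and 3 of cells transfected with a negative control siRNA (siCTRL). By the study's methods both groups had 2 rounds of transfection, 72 hours apart, and were reseeded 48 hours after the later round, before RNA was taken. The methods and the sample labels differ on the time of RNA harvest, and no test used that time. The methods call the libraries biological triplicates, and off-target effects of the siRNA pool were not tested.

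D-type cyclins bind CDK4 or CDK6 in response to growth signals and begin the phosphorylation of the RB protein, which releases E2F transcription factors. E2F factors raise the E-type cyclins, which bind CDK2, complete the phosphorylation of RB and start DNA replication. The products of CDKN1A (p21) and CDKN1B (p27) bind these complexes and hold back CDK2. The study asked what the RNA-binding protein Matrin3, encoded by MATR3, does in colorectal cancer cells. The question here was whether the RNAs of the G1/S machinery changed with that knockdown. In bulk RNA, a different share of cells in a phase of the cell cycle and a different amount of RNA per cell cannot be told apart. The study reported slower proliferation of HCT116 cells after the knockdown. In a separate assay by flow cytometry it found their cell cycle unchanged.

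The libraries held 40808173 to 54185650 expected counts. MATR3 itself stood at 95.2, 112.1 and 110.7 TPM (a level scaled by transcript length and library total) in siMatrin3, against 186.4, 180.3 and 176.5 TPM in siCTRL. Each siMatrin3 library lay below each siCTRL library. The log2 fold change on counts was -0.93 (edgeR adjusted p = 7.67e-05), a change of -47.5%, and mean TPM changed by -41.5%. Of 8 colorectal epithelial markers, 6 reached 1 TPM, and CDX1 and VIL1 did not. Their summed level was 2691 to 2917 TPM in siMatrin3 and 2947 to 3097 TPM in siCTRL, and the part of this difference in the results below was not tested. The fibroblast genes COL1A2, DCN and LUM and the leukocyte gene PTPRC were at 0 in every library, while COL1A1 of the fibroblast list and CD68 of the leukocyte list reached 1 TPM. The 6 fibroblast genes summed to 14.95 to 19.1 TPM in siMatrin3 and 13.7 to 16.2 TPM in siCTRL, and the 6 leukocyte genes to 13.2 to 19.3 TPM in siMatrin3 and 12.2 to 17.7 TPM in siCTRL.

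Of the 10 genes, 1 rose and 1 fell in the quasi-likelihood test of edgeR (adjusted p under 0.05 by the Benjamini-Hochberg method over all genes tested), and 8 did not pass. CCNE1 was the gene that rose and CDK6 the gene that fell. Over all genes tested 11.0% passed, 5.05% higher and 5.97% lower in siMatrin3, so a count of 2 among 10 is no result about the group as a whole. The promoter windows of CCNE1 and CDK6, the genes that passed, and of CDK4, the partner kinase of the same cyclins as CDK6, are shown to place the results on their sequences. They come from RefSeq on GRCh38.p14, each 250 bases before to 50 bases after a transcription start, while the tables rest on hg19. Capitals mark the GC box GGGCGG and the E-box CACGTG, the letters bound by SP1 and by MYC with MAX, on either strand. The windows lie at chr19:29811741-29812040 on the plus strand for CCNE1, at chr7:92836524-92836823 on the minus strand for CDK6 (the first of its 2 windows), and at chr12:57752261-57752560 on the minus strand for CDK4.
CCNE1: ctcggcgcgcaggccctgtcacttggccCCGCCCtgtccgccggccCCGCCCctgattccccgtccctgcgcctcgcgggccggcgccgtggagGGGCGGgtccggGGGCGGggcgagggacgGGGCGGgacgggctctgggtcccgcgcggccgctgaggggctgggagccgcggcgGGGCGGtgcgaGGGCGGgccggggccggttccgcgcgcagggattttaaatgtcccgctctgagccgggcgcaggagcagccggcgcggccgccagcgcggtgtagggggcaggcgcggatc
CDK6: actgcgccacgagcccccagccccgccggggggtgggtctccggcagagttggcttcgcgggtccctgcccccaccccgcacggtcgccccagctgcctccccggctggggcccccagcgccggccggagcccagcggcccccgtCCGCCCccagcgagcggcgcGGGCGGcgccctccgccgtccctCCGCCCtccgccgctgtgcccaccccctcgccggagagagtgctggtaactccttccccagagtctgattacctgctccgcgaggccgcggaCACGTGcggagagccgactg
CDK4: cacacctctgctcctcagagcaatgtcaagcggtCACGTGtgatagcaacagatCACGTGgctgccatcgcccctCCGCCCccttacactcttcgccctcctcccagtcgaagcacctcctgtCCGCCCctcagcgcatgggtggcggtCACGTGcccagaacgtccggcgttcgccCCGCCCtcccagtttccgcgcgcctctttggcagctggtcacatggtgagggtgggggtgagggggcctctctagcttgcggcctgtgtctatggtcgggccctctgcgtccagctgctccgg

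The CCNE1 window held 7 GC boxes and no E-box, the CDK6 window shown 3 GC boxes and 1 E-box, and the CDK4 window 3 of each. The other CDK6 window held 0 GC boxes and 0 E-boxes. A GC box was found in 44.95% and an E-box in 7.26% of all 35116 windows of this length. The E2F words TTTCCCGC, TTTGGCGC and TTTCGCGC, held by 2.74% of all windows, matched none of the 9 windows of the 6 members in the table, which says only that these letters are not there. The other members in the table were CCND3, CDKN1A and CDKN1B. CCND1, CCND2, CCNE2 and CDK2 had no entry.

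**Figure D1:**
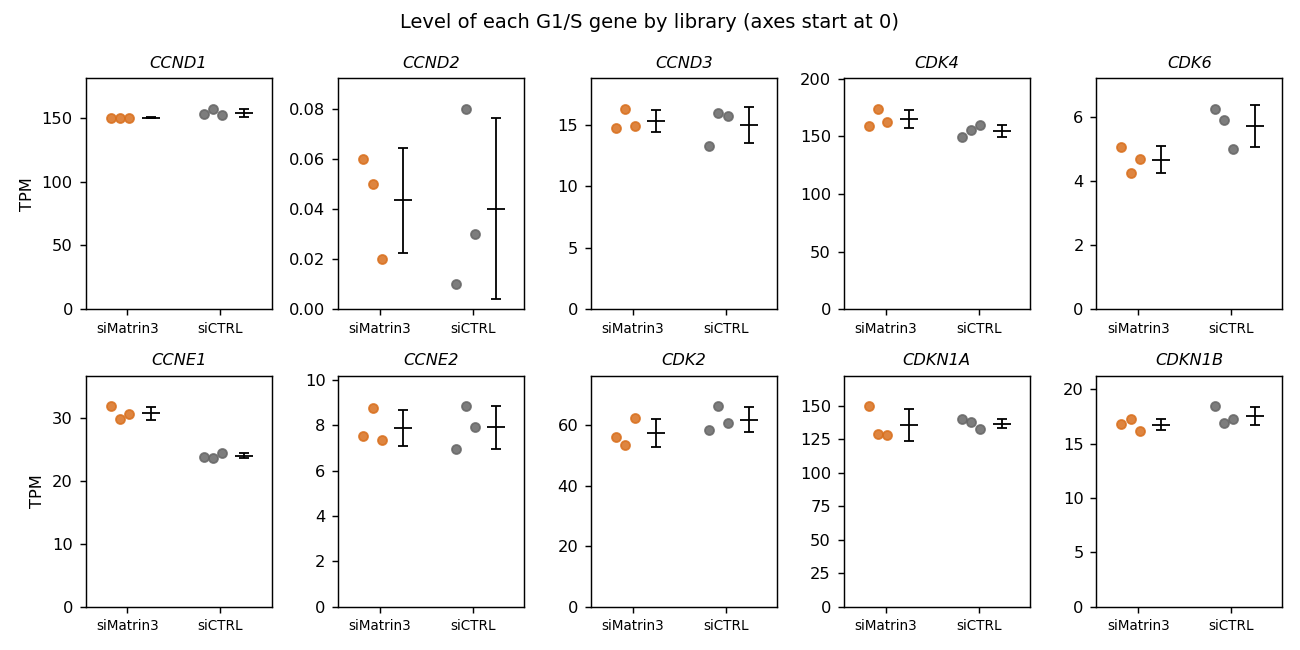
TPM of the 10 G1/S genes in each library of siMatrin3 (orange, left) and siCTRL (grey, right), with a point per library and the mean with 1 SD beside them (n = 3 each). CCNE1 lies at 29.8 to 31.8 TPM in siMatrin3 and at 23.7 to 24.4 TPM in siCTRL, CCND1 shows a narrow gap, and the groups overlap for the other 8 genes.

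The levels spanned a wide range and the order of the means was the same in both groups. In siMatrin3 libraries CDK4 was first at 165.2 ± 7.94 TPM, then CCND1 at 150.2 ± 0.035, CDKN1A at 135.5 ± 12.1, CDK2 at 57.3 ± 4.596, CCNE1 at 30.7 ± 1.04, CDKN1B at 16.8 ± 0.532, CCND3 at 15.3 ± 0.873, CCNE2 at 7.89 ± 0.778 and CDK6 at 4.66 ± 0.410 TPM (SD, n = 3 each). In siCTRL libraries the same order ran from 154.9 ± 5.17 TPM for CDK4 and 153.9 ± 2.92 TPM for CCND1 to 5.71 ± 0.649 TPM for CDK6 (SD, n = 3 each). The neighbours CDK4 and CCND1 overlapped in siCTRL, and CDKN1B and CCND3 overlapped in siMatrin3, so their order within those groups lay within the spread. CCND2 was last in both groups, at 0.02 to 0.06 TPM in siMatrin3 and 0.01 to 0.08 TPM in siCTRL.

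Within families, a single member made up most of the RNA. CCND1 held 90.2% to 92.0% of the TPM of the 3 D-type cyclins in the 6 libraries, CDKN1A held 88.2% to 89.9% of that of the 2 inhibitors, and CDK4 held 68.3% to 75.1% of that of the 3 kinases. CDK6, which binds the same cyclins as CDK4, held 1.83% to 2.92% of the kinase TPM. CCNE1 held 80.8%, 77.2% and 80.7% of the TPM of the 2 E-type cyclins in siMatrin3, against 77.4%, 72.8% and 75.5% in siCTRL, and the groups overlapped in this share.

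Cyclin E1, the product of CCNE1 (chromosome 19), is the E-type cyclin that was the more abundant here. CCNE1 had 31.8, 29.8 and 30.6 TPM in siMatrin3, against 23.8, 23.7 and 24.4 TPM in siCTRL. The siMatrin3 libraries all lay above the siCTRL libraries, with a gap of 5.39 TPM between the nearest libraries of the groups, and the spread within a group was small. The log2 fold change was 0.34 (SE 0.048, edgeR adjusted p = 0.00219), a rise of 26.9% with a 95% interval of 17.9% to 36.6%. This was the only member whose call held in all 16 alternatives, where its log2 fold change ran from 0.31 to 0.38.

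CCNE2 encodes the second E-type cyclin, cyclin E2. It had 7.55, 8.78 and 7.34 TPM in siMatrin3, against 6.97, 8.85 and 7.92 TPM in siCTRL. The groups overlapped, and their order differed between scales: the edgeR log2 fold change on counts was 0.13 (95% interval -0.06 to 0.31, edgeR adjusted p = 0.392), and the means per length were 7.89 TPM in siMatrin3 and 7.91 TPM in siCTRL. The TPM of both E-type cyclins together was 39.4, 38.6 and 37.95 in siMatrin3 and 30.8, 32.6 and 32.3 in siCTRL. In the group means that gap was CCNE1, as those of CCNE2 were nearly equal. The difference between the cyclins could not reach 0.05 in the exact permutation test used here, with 3 against 3 libraries. The groups also overlapped in the ratio of the cyclins. The CCNE1 to CCNE2 ratio of TPM was 4.22, 3.39 and 4.17 in siMatrin3 and 3.42, 2.68 and 3.08 in siCTRL, and the difference in log2 ratio was 0.36 (exact permutation test, two-sided, p = 0.2, adjusted p = 0.4 over 4 ratios, where the smallest p this design allows is 0.1).

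CDK2, the kinase driven by the E-type cyclins and by cyclin A, differed in direction between the scales of counts and TPM. It had 74.4, 76.3 and 76.3 CPM (expected counts scaled by library total) in siMatrin3, against 70.0, 72.8 and 72.9 in siCTRL, so the siMatrin3 libraries were all higher. On this scale the groups did not overlap for 3 members, CDK2 and CCNE1 (higher) and CDK6 (lower). The same held for 30.8% of all genes tested, 12.3% higher and 18.5% lower. The edgeR log2 fold change of 0.09 did not pass (95% interval 0.0039 to 0.18, edgeR adjusted p = 0.174). Per length, CDK2 had 56.1, 53.4 and 62.4 TPM in siMatrin3, against 58.4, 66.3 and 60.8 TPM in siCTRL, a mean 7.32% lower with overlapping groups. With a transcript length offset in edgeR the log2 fold change was -0.09 (edgeR adjusted p = 0.507), so no direction can be given for CDK2.

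**Figure D2:**
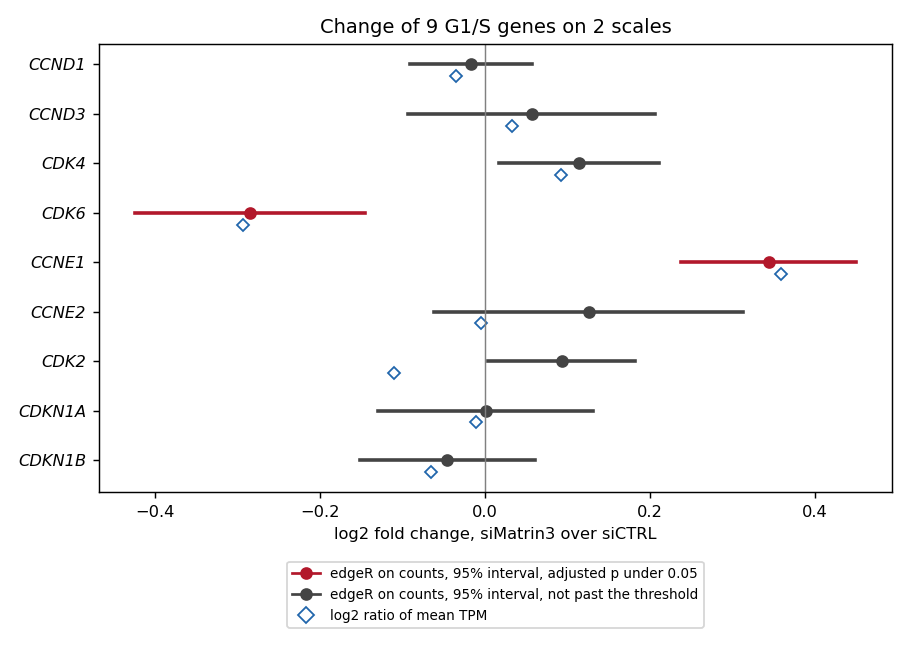
Log2 fold change of 9 G1/S genes, siMatrin3 over siCTRL, as circles with 95% intervals from edgeR on counts (red, adjusted p under 0.05) and as open diamonds for the log2 ratio of mean TPM, with CCND2 left out for its few counts. CCNE1 lies at 0.34 and CDK6 at -0.28, CCND1 and CDKN1A lie at -0.02 and 0.00, and CDK2 lies on opposite sides of 0 on the 2 scales.

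CDK6 (chromosome 7) was the member that fell. CDK6 had 39.7, 35.6 and 37.99 CPM in siMatrin3, against 50.6, 45.9 and 43.5 in siCTRL, so all siMatrin3 libraries were lower. The log2 fold change was -0.28 (SE 0.063, edgeR adjusted p = 0.0187), a change of -17.9% with a 95% interval of -25.5% to -9.55%. Per length the groups overlapped: CDK6 had 5.06, 4.24 and 4.68 TPM in siMatrin3, against 6.25, 5.89 and 4.99 TPM in siCTRL, and siMatrin3 replicate 1 lay above siCTRL replicate 3. The direction held in all 16 alternatives, but the call was lost in 6 of them: without siMatrin3 replicate 2 (edgeR adjusted p = 0.0691) or 3 (edgeR adjusted p = 0.0781), with an offset for transcript length, in limma on TPM at either pseudocount, and at an adjusted p under 0.01. CDK6 overlaps exons of its antisense gene CDK6-AS1.

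CDK6 also differed from the other members in gene structure. In the GENCODE release 44 annotation its locus spans 231.7 kb, longer than that of 94.95% of the genes tested. The next longest among the members was CCND3 at 115.4 kb, and CDK2 was the shortest at 6.01 kb. The transcripts behind CDK6 averaged 9721, 10408 and 10076 bases in siMatrin3, against 10041, 9696 and 10779 bases in siCTRL, the longest of the members tested.

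CDK4 is the kinase that shares its cyclins with CDK6, and did not pass the test. CDK4 had 158.9, 174.1 and 162.5 TPM in siMatrin3, against 149.4, 155.7 and 159.7 TPM in siCTRL, and siMatrin3 replicate 1 lay below siCTRL replicate 3. The log2 fold change was 0.11 (95% interval 0.02 to 0.21, edgeR adjusted p = 0.129). The CDK4 to CDK6 ratio of TPM was 31.4, 41.1 and 34.7 in siMatrin3 and 23.9, 26.4 and 32.0 in siCTRL. The groups overlapped, and the difference in log2 ratio was 0.38 (exact permutation test, two-sided, p = 0.2, adjusted p = 0.4).

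Among the D-type cyclins, CCND1 (cyclin D1, a target of WNT and RAS signalling) had the smallest SE of the log2 fold change among the members (0.033). It had 150.1, 150.2 and 150.2 TPM in siMatrin3, against 152.6, 157.2 and 151.8 TPM in siCTRL. The siMatrin3 libraries lay just below the siCTRL libraries in TPM, by 1.65 TPM between the nearest, and overlapped with them in CPM. Over all genes tested the groups did not overlap in TPM for 25.1% (9.99% higher and 15.2% lower in siMatrin3), and CCND1 (lower) and CCNE1 (higher) were the members for which they did not. The log2 fold change of CCND1 was -0.02 (edgeR adjusted p = 0.801), with a 95% interval from -6.09% to 4.02%.

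CCND3, which encodes cyclin D3, had 14.7, 16.3 and 14.9 TPM in siMatrin3, against 13.3, 16.0 and 15.7 TPM in siCTRL. The groups overlapped, and siCTRL replicate 1 was the lowest library (log2 fold change 0.06, 95% interval -0.09 to 0.21, edgeR adjusted p = 0.652). Without that library the log2 fold change was -0.0043. The CCND1 to CCND3 ratio of TPM was 10.2, 9.20 and 10.1 in siMatrin3 and 11.5, 9.84 and 9.67 in siCTRL, a difference in log2 ratio of -0.07 (exact permutation test, two-sided, p = 0.6, adjusted p = 0.7).

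CCND2, the gene of cyclin D2, was close to silent in these cells. It had 16, 11 and 4 expected counts in siMatrin3, against 4, 9 and 8 in siCTRL, where each other member had at least 537 in every library. At this depth a difference was not detectable: the 95% interval of the change ran from -34.7% to 224% (edgeR adjusted p = 0.564). CCND2 also overlaps another annotated gene in exons of its own strand.

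CDKN1A encodes the inhibitor p21. It had 149.5, 129.1 and 128.1 TPM in siMatrin3, against 139.8, 137.4 and 132.6 TPM in siCTRL. A single siMatrin3 library, replicate 1, was the highest of the 6, and the other siMatrin3 libraries were the lowest. The log2 fold change was 0.0011 (95% interval of the change -8.56% to 9.52%, edgeR adjusted p = 0.994), and without siMatrin3 replicate 1 it was -0.08 (edgeR adjusted p = 0.269). CDKN1B, which encodes p27, had 16.8, 17.3 and 16.2 TPM in siMatrin3, against 18.5, 16.9 and 17.3 TPM in siCTRL. These groups overlapped, and the change was -3.13% (95% interval -9.99% to 4.26%, edgeR adjusted p = 0.599). The ratio of CDKN1A to CDKN1B was 8.89, 7.47 and 7.90 in siMatrin3 and 7.58, 8.11 and 7.68 in siCTRL, a difference in log2 ratio of 0.05 (exact permutation test, two-sided, p = 0.7, adjusted p = 0.7).

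The deposited length of a gene averages its transcripts by their estimated abundance, so it shifts when a gene uses other transcripts. Matrin3 is a splicing regulator, and this measure did not enter the choice of the genes. Of 9 members with enough counts, 0 passed the test by limma on log2 length, and 2, CCNE2 and CDK2, had an unadjusted p under 0.05. Over all 12148 genes with a value 1 passed (0.00823%), and 6.32% had an unadjusted p under 0.05. CCNE2 averaged 2169, 2123 and 2234 bases in siMatrin3, against 2063, 1994 and 2043 bases in siCTRL (difference 142.03 bases, limma adjusted p = 0.642). CDK2 averaged 1800, 1919 and 1676 bases in siMatrin3, against 1654, 1520 and 1642 bases in siCTRL (difference 193.2 bases, limma adjusted p = 0.788). Both genes were longer in all siMatrin3 libraries, and over all genes with a value the groups did not overlap in 10.6%, and 5.27% were longer in every siMatrin3 library. CDKN1B stood at 2657 bases in every library, although the tables list 4 transcripts for it.

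**Figure D3:**
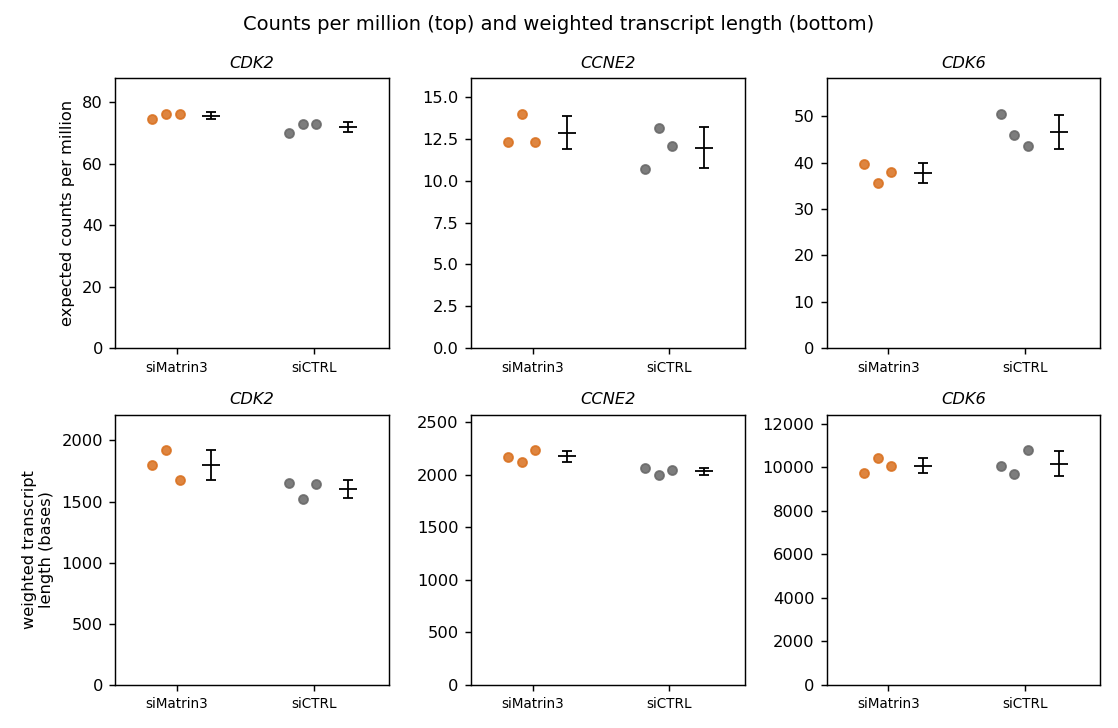
CPM (top) and weighted transcript length in bases (bottom) of CDK2, CCNE2 and CDK6 in each library of siMatrin3 (orange, left) and siCTRL (grey, right), with the mean and 1 SD beside the points (n = 3 each). CDK2 is higher in counts and longer in siMatrin3, CCNE2 is longer with overlapping counts, and CDK6 is lower in counts with overlapping lengths.

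In the same annotation, 8 members overlap exons of a gene on the other strand, among them CCND1 with LTO1, CDK4 with TSPAN31, CDK2 with PMEL, CDK6 with CDK6-AS1 and CCNE2 with INTS8. The libraries were stranded, but whether the authors' counting used the strand is not given in the sources used here, so reads of such pairs may not have been told apart. CCNE1 and CDKN1B overlap no other annotated gene in their exons. MATR3 overlaps another annotated gene of the same name in exons of its own strand.

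Genes around the G1/S machinery were described in 7 lists, with the same fit. The lists were chosen with earlier results of these data known, so their counts are descriptions only. Of the 6 other CDK inhibitors 3 fell and 0 rose, against 5.97% lower and 5.05% higher over all genes tested, with a median log2 fold change of -0.24, where the median of all genes tested was -0.0011. CDKN2B, which encodes p15, an inhibitor of CDK4 and CDK6, had 8.26, 9.22 and 9.04 TPM in siMatrin3, against 13.1, 14.6 and 12.5 TPM in siCTRL. All siMatrin3 libraries were lower (edgeR adjusted p = 0.000343 at a log2 fold change of -0.51 with an SE of 0.049), and the call held in all alternatives. CDKN2C and CDKN2D, which encode p18 and p19 of the same family, fell by 0.51 (edgeR adjusted p = 0.0304) and 0.32 (edgeR adjusted p = 0.0214) on the log2 scale, calls lost in 9 and 7 of the 16 alternatives. CDKN2A, which encodes p16 and ARF, and CDKN1C, which encodes p57, did not pass at -0.16 and -0.15, and the phosphatase gene CDKN3 was at 0.05.

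Of 26 E2F target genes of S phase, 13 rose and 0 fell, against 5.05% and 5.97% of all genes tested, with a median log2 fold change of 0.18. In edgeR on counts all 26 had positive values, as had 49.7% of all genes tested. Per length, GINS1 had a mean of 13.48 TPM in siMatrin3 and 13.53 TPM in siCTRL. Among the 13 that rose, the groups overlapped in TPM for MCM4, MCM10, POLE, GINS2 and SLBP. The helicase subunits MCM5, MCM6 and MCM2 rose by 0.30, 0.26 and 0.24 on the log2 scale, and the DNA glycosylase UNG by 0.27 (edgeR adjusted p = 0.00319). The MCM2 call was lost in 2 of the 16 alternatives and those of MCM5, MCM6 and UNG in 0. MCM5 had 77.6, 78.9 and 79.5 TPM in siMatrin3, against 62.0, 66.4 and 66.9 TPM in siCTRL, with siCTRL replicate 1 the lowest. The count moved with the libraries and the scale. It was 7 without siCTRL replicate 1, 6 and 7 without siMatrin3 replicates 2 and 3, 4 with an offset for transcript length, 3 in limma on TPM and 20 with the replicate number as a block. Among 13 RB and E2F genes 2 rose and 0 fell (median 0.05): E2F8 and E2F2, at 0.30 and 0.26. The share that rose over all genes tested was 5.05%. These calls were lost in 4 and 6 of the 16 alternatives, among them the length offset, limma on TPM and the threshold of 0.01, and the E2F2 groups overlapped in TPM. RB1 and E2F1 did not pass, at -0.07 and 0.17. Of 7 other cell cycle cyclins and kinases tested, of 8 listed, 1 rose and 0 fell, against 5.05% and 5.97% of all genes tested. Their median was 0.16, and all 7 had positive values. The gene that rose was cyclin A2 (CCNA2), which binds CDK2 in S phase, at 0.20, a call lost in 9 of the 16 alternatives.

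Genes that act on the cyclin-CDK complexes were described in 2 lists. Of 10 genes of CDK activation and inhibitory phosphorylation, 2 rose and 1 fell (median 0.03), where 5.05% of all genes rose and 5.97% fell. WEE1, the kinase that places an inhibitory phosphate on CDK1 and CDK2, rose by 0.41 (edgeR adjusted p = 0.000648). It had 26.3, 26.3 and 28.2 TPM in siMatrin3, against 19.2, 24.1 and 20.9 TPM in siCTRL, and the groups did not overlap. The call was lost in 2 of the 16 alternatives, limma on TPM at either pseudocount. WEE1, and MNAT1 described next, each overlap another annotated gene in exons of their own strand. CDC25A, the phosphatase that removes this phosphate, rose by 0.26, and MNAT1, a subunit of the CDK-activating kinase, fell by 0.18, calls lost in 7 and 11 of the 16 alternatives. Of 18 genes of cyclin and inhibitor turnover 1 rose and 0 fell (median 0.05), a share near that of all genes. It was DTL, the receptor of the ubiquitin ligase that degrades p21 and CDT1 in S phase, at 0.25 (edgeR adjusted p = 0.00542), a call lost in 3 of the 16 alternatives: with the length offset and in limma on TPM at either pseudocount. DTL had 16.3, 17.9 and 15.9 TPM in siMatrin3, against 14.0, 15.2 and 14.7 TPM in siCTRL. Among the called genes of smallest p in each list, DTL, CDKN2C, CCNA2, E2F8, MCM2 and MYC overlap exons of a gene on the other strand.

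**Figure D4:**
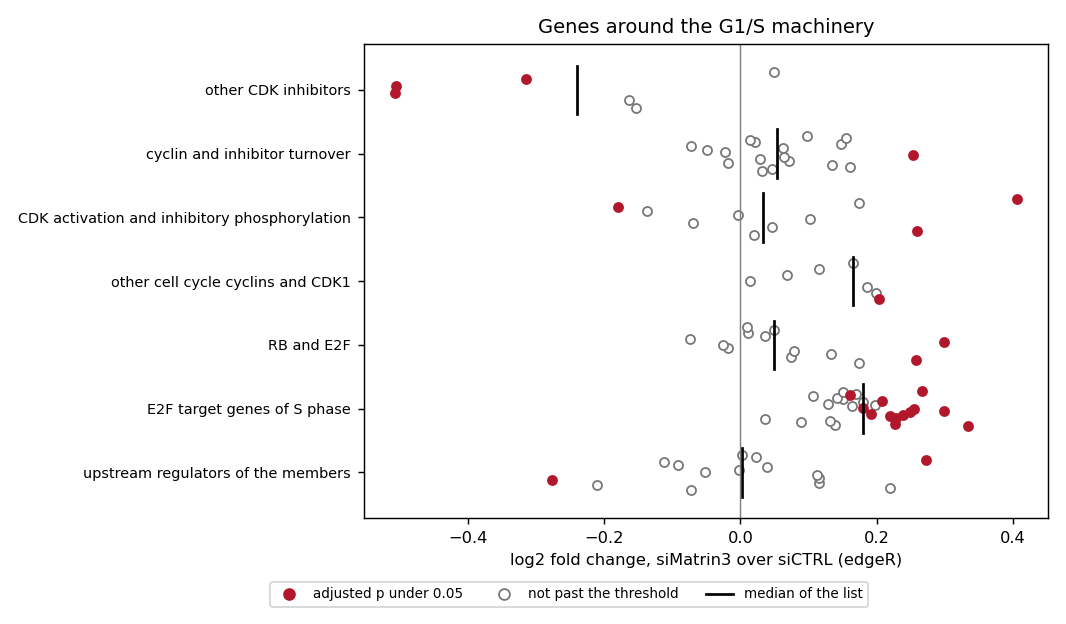
Log2 fold change from edgeR, siMatrin3 over siCTRL, of the tested genes in 7 lists around the G1/S machinery, where each circle is a gene (filled red, adjusted p under 0.05) and the black line is the median of the list. The other CDK inhibitors have a median of -0.24, the E2F target genes of S phase 0.18 and the other cell cycle cyclins and CDK1 0.16. In the lists other than the E2F targets 1 to 3 genes are filled.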

How the data were processed

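Poly(A) RNA of 3 siMatrin3 and 3 siCTRL cultures of HCT116 was measured. According to the submitters' processing notes, reads were trimmed with cutadapt, aligned to hg19 with STAR 2.5.1 (the methods name another version) and quantified with RSEM. The authors deposited, per library, expected counts, which divide reads shared between genes, TPM, scaled by the authors to a common total, and lengths weighted by transcript abundance. Gene names came from a name table (88.3% of genes matched), and locus spans and overlaps from GENCODE release 44 on GRCh38.

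Expected counts were rounded, scaled by TMM after filterByExpr and then tested in edgeR 4.0.16 in R 4.3.3 (quasi-likelihood, two-sided, no covariates, Benjamini-Hochberg over 16786 genes, threshold 0.05). Intervals are 95% intervals from the same fit. Lengths were tested with limma 3.58.1 in genes with at least 2 transcripts and 50 counts in every library. Alternatives were DESeq2 1.42.0 (the study used DESeq2 in another version), RLE and upper quartile scaling, no filter, a minimum of 1 CPM in 3 libraries, a block for the replicate number, each library left out, a transcript length offset, limma on log2(TPM + 1) and log2(TPM + 0.1), and a threshold of 0.01. Steps were tested on simulated data. Libraries of a group differed by more than counting error. The p-values of edgeR and limma set the difference between the groups against the spread within them.

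The members and lists were chosen with earlier results of these data known. From each list up to 4 called genes with the smallest p were named. CDKN2A, CDKN1C, CDKN3, RB1, E2F1, GINS1, MCM4, MCM10, POLE, GINS2 and SLBP were named after their values were seen. A further list of genes is not reported here.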

Additional observations from a re-analysis of the deposited data

How the results depend on the processing

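The few counts of CCND2 left its change undetermined. The count of all genes called, 1849, was 706 with an offset for transcript length and 561 at a threshold of 0.01. It was 437 and 429 in limma on log2(TPM + 1) and log2(TPM + 0.1). With 1 library left out it was 759 to 1599 (759 without siMatrin3 replicate 3, 770 without siCTRL replicate 3, 1014 without siMatrin3 replicate 2). It was higher, at 2716, with the replicate number as a block and, at 2595, with no filter on low counts. The count of members called, 2, was 1 with that offset, in limma on TPM at either pseudocount and at the 0.01 threshold, and 1 to 2 with a library left out. CCNE1 was the member that remained in each. Over all lists together 25 of 95 genes tested were called, where 11.0% of all genes tested passed. Of these 25, 13 were E2F target genes of S phase. The count over all lists was 41 with the replicate number as a block, 9 with the length offset, 6 with limma on TPM at either pseudocount, 10 at the 0.01 threshold, and 13 to 28 with a library left out: 13 without siMatrin3 replicate 3, 14 without siMatrin3 replicate 2, 15 without siCTRL replicate 1 and 16 without siCTRL replicate 3. Whether the numbers pair the libraries is not known. The deviations of same-numbered libraries correlated at 0.177, 0.0896 and 7.2063e-05. By these correlations siMatrin3 replicates 1 and 2 were closest to the siCTRL library of their own number, and siMatrin3 replicate 3 was not. With the replicate block CCNE1 and CDK6 kept their calls, at log2 fold changes of 0.34 and -0.28.

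Log2 fold changes of some members that did not pass changed sign. CDK2 was at -0.091 with the length offset and -0.109 and -0.110 with limma on TPM. CCNE2 was at -0.0020 with limma at either pseudocount. CDKN1A was at -0.018 with upper quartile scaling, -0.0064 with the 1 CPM filter, -0.0023 with the replicate block, -0.014 and -0.015 with limma, and -0.081 to 0.044 with a library left out. CCND3 ran from -0.0043 to 0.091 with a library left out. The log2 ratio difference ran from -0.019 to 0.106 for CDKN1A to CDKN1B and from -0.117 to 0.0075 for CCND1 to CCND3. The log2 change of length ran from -0.0097 to 0.0079 for CCND1, -0.010 to 0.018 for CCND3, -0.0073 to 0.012 for CDK4 and -0.048 to 0.029 for CDK6. The cause of these changes was not tested. With the 1 CPM filter CCND2 had no value.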

Other observations

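Transcription factors and signalling genes known to act on the members were examined as a list of 15, of which 1 rose and 1 fell (median log2 fold change 0.0020). Over all genes tested 5.05% rose and 5.97% fell, so these counts are near the shares of all genes and are no result about the list. MYC, a factor that binds E-boxes and is known to raise CDK4, had 385.4, 406.8 and 406.8 TPM in siMatrin3, against 337.5, 324.4 and 344.4 TPM in siCTRL. All siMatrin3 libraries were higher (log2 fold change 0.27, edgeR adjusted p = 0.00271), and the call held in all 16 alternatives. FOXO4, a forkhead factor of the family that raises CDKN1B, had 6.97, 7.96 and 7.35 TPM in siMatrin3, against 9.81, 9.55 and 9.95 TPM in siCTRL (log2 fold change -0.28, edgeR adjusted p = 0.0137), a call lost in 2 of the 16 alternatives.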
